A study of Mus musculus with 12 samples.

Results

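The Reg (regenerating) genes encode small secreted C-type lectins, proteins that bind sugars. In the small intestine, enterocytes and Paneth cells secrete Reg3g and Reg3b into the lumen. Reg3g binds peptidoglycan and kills mainly Gram-positive bacteria, which keeps bacteria away from the epithelium, and Reg3b acts also on Gram-negative species. Both genes are known to be induced by bacteria through Myd88 and through interleukin 22, whose receptor signals to Stat3. Reg1 and Reg2, the lithostathines, are best known as secretory products of the pancreas.

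Of the 45808 genes in the deposited table, 5 were described here, chosen by symbol: Reg1, Reg3a, Reg3b, Reg3d and Reg3g. All 5 were present. RNA was sequenced from the distal ileum of BALB/c mice, an inbred strain, in 6 libraries from PBS (phosphate-buffered saline) controls and 6 from mice treated with P. gingivalis, a Gram-negative oral bacterium linked to periodontitis. The libraries are called replicates 1 to 6 of each group after the numbers in their titles. The sources used here give no route, dose, duration, age or sex, and do not say that each library came from a separate mouse, so p-values measure the spread between these libraries, which may in part be technical. By its title, the series asks how P. gingivalis relates to inflammation of the intestine.

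Values are normalized counts (reads per gene over a library's size factor, as the authors scaled them), and recovered depth ran from 6553306 to 10378841 reads. A difference is always P. gingivalis minus PBS in log2(normalized count + 1), with its standard error (SE), from limma fitted to all genes. In these whole-tissue samples, fewer cells of a type and less RNA per cell cannot be told apart. All 12 libraries are labelled distal ileum, but Fabp6, the ileal bile acid binding protein, stood below 100 in 3 of them, namely PBS replicate 6 and P. gingivalis replicates 1 and 5. The other 9 had 11246 to 69383. In those 3, Fabp1, the fatty acid carrier of more proximal enterocytes, stood at 16938, 26745 and 21996, and elsewhere at 1821 or less. P. gingivalis replicate 6 differed in another way, with Car1, a carbonic anhydrase of the colon, at 498, against at most 2.71 in the other 11. Among epithelial genes, the surface protein gene Epcam spanned 11161 to 15554 in PBS and 7365 to 17095 after P. gingivalis.

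The 5 genes lie with Reg2 in 1 cluster of 98.2 kb on chromosome 6 of GRCm38. In the GENCODE annotation of that build, the order is Reg3b (78370657 to 78373466, plus strand), Reg3d (78375874 to 78378865, minus), Reg3a (78380709 to 78383827, plus), Reg2 (78395623 to 78408106, plus), Reg1 (78422711 to 78428667, plus) and Reg3g (78466269 to 78468872, minus). All 6 are protein coding, each has 6 exons in its principal transcript, and none overlaps its neighbour. Counts are per gene, with exons and isoforms not separated. The principal transcripts of Reg3b and Reg3g were identical at 74.4% of 739 aligned bases, with a longest shared run of 35 bases, and those of Reg3a and Reg3b at 75.5% of 758, with a longest run of 24. How reads that match more than 1 gene were counted is not stated, so a small exchange of reads between these relatives is uncertain.

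The 250 bases before the RefSeq start of 4 members are shown because Reg3b and Reg3g, at opposite ends of the cluster, varied together between libraries, while Reg1 and Reg3a were highest in 3 libraries of another kind. They are RefSeq sequences of GRCm38.p6, written 5′ to 3′ on each gene's own strand: Reg3b at chr6:78370635-78370884 (plus), Reg3g at chr6:78468875-78469124 (minus), Reg1 at chr6:78425733-78425982 (plus) and Reg3a at chr6:78380459-78380708 (plus). The RefSeq starts of Reg1 and Reg3b lie downstream of the GENCODE gene starts given above, so that the Reg1 window lies inside the GENCODE gene and the Reg3b window reaches into it. Capitals mark matches to TTCNNNGAA, the STAT palindrome (both strands searched), or to TATAAA, the TATA box (forward strand).
Reg3b: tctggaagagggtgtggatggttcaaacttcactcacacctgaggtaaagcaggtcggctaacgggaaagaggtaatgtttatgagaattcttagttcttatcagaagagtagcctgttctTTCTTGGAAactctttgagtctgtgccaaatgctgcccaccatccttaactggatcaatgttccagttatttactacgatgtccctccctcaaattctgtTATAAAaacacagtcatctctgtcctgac
Reg3g: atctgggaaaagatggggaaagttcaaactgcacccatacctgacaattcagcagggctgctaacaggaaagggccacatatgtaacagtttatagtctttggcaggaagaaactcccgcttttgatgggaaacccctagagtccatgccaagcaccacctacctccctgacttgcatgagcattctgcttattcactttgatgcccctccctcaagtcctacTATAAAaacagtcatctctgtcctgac
Reg1: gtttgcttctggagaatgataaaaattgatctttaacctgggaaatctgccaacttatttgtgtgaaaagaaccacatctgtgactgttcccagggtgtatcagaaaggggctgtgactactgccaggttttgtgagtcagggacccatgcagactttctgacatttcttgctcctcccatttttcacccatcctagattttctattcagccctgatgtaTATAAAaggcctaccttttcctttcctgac
Reg3a: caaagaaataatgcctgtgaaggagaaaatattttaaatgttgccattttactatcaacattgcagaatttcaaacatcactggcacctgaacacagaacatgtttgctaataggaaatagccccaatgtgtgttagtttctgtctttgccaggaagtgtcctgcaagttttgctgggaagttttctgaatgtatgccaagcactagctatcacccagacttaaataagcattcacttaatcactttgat

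The Reg3b and Reg3g sequences aligned over 247 bases with 70.0% identity, and the last 20 bases before the start were identical in both. Identity of this size was not particular to them. Reg3a and Reg3g had 71.5% over 193 aligned bases, Reg1 and Reg2 69.0% over 226, and Reg3a and Reg3d 67.3% over 211. Reg3b held TATAAA at bases -29 to -24 and Reg3g at -27 to -22, counted back from the start. So did Reg1 and the nearly unread Reg2, each at -30 to -25, but not Reg3a or Reg3d. TTCNNNGAA was found in Reg3b at -129 to -121, and in Reg3d, a member with few reads, at -238 to -230, and not in these windows of Reg3g, Reg1 or Reg3a. Over 32817 mouse promoters of the same length, 7.01% held TTCNNNGAA and 7.60% held TATAAA. Such a match is a run of letters and does not show binding, and the absence of a match concerns only this window.

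Levels differed between the genes by orders of magnitude. Per kilobase of principal transcript, PBS libraries averaged 8868 ± 5832 normalized counts for Reg3b, 7722 ± 4056 for Reg3g, 1268 ± 212 for Reg3a, 51.8 ± 21.6 for Reg1 and 3.77 ± 1.62 for Reg3d (SD, n = 6). Reg3b and Reg3g did not differ beyond their spread. Reg3g, at 2634 per kilobase or more in every library, lay above Reg3a, at 2215 or less. Reg3a lay above Reg1 in every library of the PBS group, with a lowest value of 1077 per kilobase against a highest of 95.5. After P. gingivalis those 2 ranges overlapped, because Reg1 reached 1949 per kilobase in replicate 1. Reg2, the lithostathine between Reg3a and Reg1 on the chromosome, had 2 reads in the whole PBS group and 3 in the P. gingivalis group. Genes with high and near-zero counts thus lay side by side in the cluster.

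**Figure D1:**
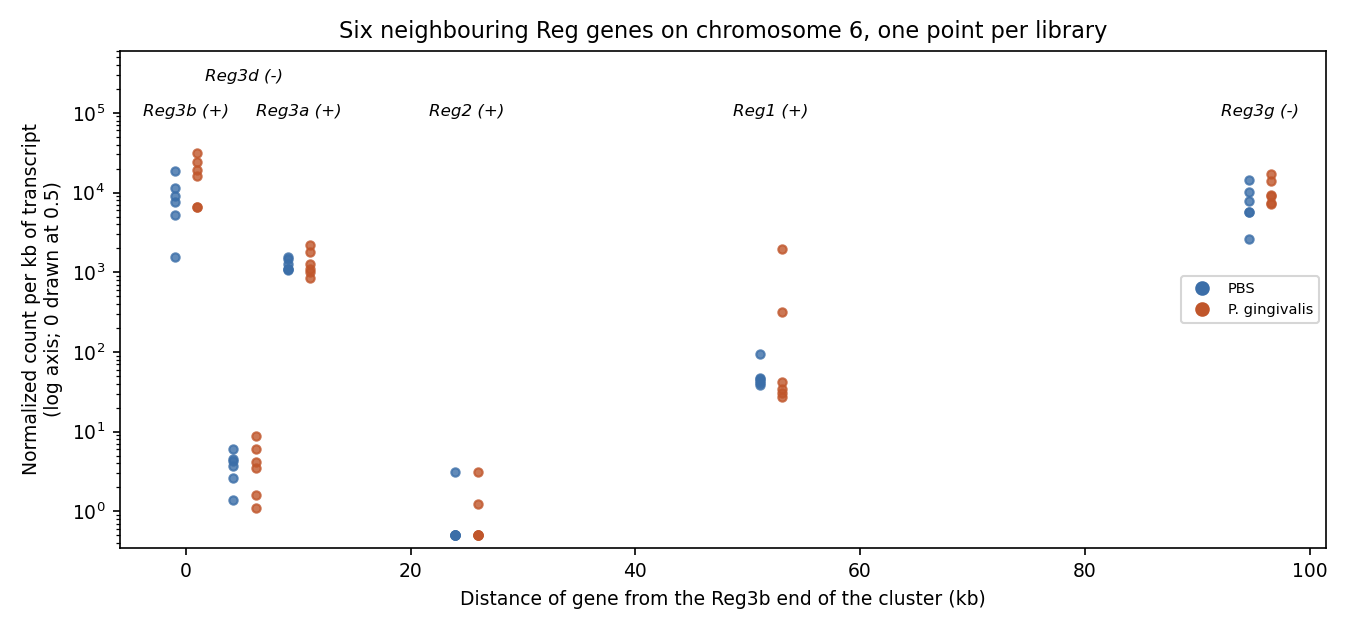
Normalized count per kilobase of principal transcript (vertical log axis, 0 drawn at 0.5) for the 6 Reg genes of the cluster, placed by the distance of the gene from the Reg3b end in kilobases (horizontal axis). Each point is 1 library, with the 6 PBS and 6 P. gingivalis libraries drawn side by side and the strand in brackets. Reg3b and Reg3g, at the ends, have the highest medians, though the lowest Reg3b library lies within the Reg3a range, and Reg2 and Reg3d lie below 10 in every library.

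Reg3b, the member with the highest mean, had higher values in 4 of the 6 P. gingivalis libraries than in most PBS libraries, but the groups overlapped. In PBS it ran from 1224 to 14597 with a median of 6474, and after P. gingivalis from 5088 to 24236 with a median of 13900. The P. gingivalis libraries formed a high set, with replicates 6, 4, 1 and 5 at 24236, 19141, 15024 and 12775, and a low pair, with replicates 2 and 3 at 5146 and 5088, both below the PBS median. In the high set, replicates 1 and 5 were low in Fabp6 and replicate 6 was the library with Car1. The highest PBS library was replicate 2 at 14597, above replicate 5 of the treated group. The log2 difference was 1.07 (SE 0.55) and did not pass (limma adjusted p = 0.992, exact two-sided permutation p = 0.121 without adjustment). PBS replicate 6, 1 of the Fabp6-low libraries, held the lowest Reg3b of all 12. The difference was 0.64 (SE 0.44) without that library and 0.51 (SE 0.51) without all 3 libraries low in Fabp6. It was 0.86 (SE 0.55) without P. gingivalis replicate 6, and 1.18 (SE 0.49) with a gut position score, built from Fabp6, Slc10a2, Fabp1 and Lct, as a covariate (limma adjusted p = 0.933).

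Reg3g, the peptidoglycan-binding member, showed the same order of groups with a smaller difference. It spanned 2031 to 10931 in PBS with a median of 5224, and 5494 to 13129 after P. gingivalis with a median of 6995. Only replicate 4 of the P. gingivalis group lay above the highest PBS library, and PBS replicate 6 was again the lowest of the 12. The log2 difference was 0.56 (SE 0.35) and did not pass (limma adjusted p = 0.992, exact two-sided permutation p = 0.182 without adjustment). It was 0.29 (SE 0.29) without PBS replicate 6 and 0.36 (SE 0.34) without the 3 libraries low in Fabp6, and 0.65 (SE 0.29) with the gut position covariate (limma adjusted p = 0.935).

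Reg3a, the third Reg3 gene with a substantial count, had nearly the same median in both groups. It spanned 888 to 1292 in PBS and 698 to 1828 after P. gingivalis, with medians of 979 and 979. Its 3 highest libraries were P. gingivalis replicates 1 and 5, at 1828 and 1484, and PBS replicate 6, at 1292, the same 3 that were low in Fabp6. The lowest was P. gingivalis replicate 6, the library with Car1. The log2 difference was 0.05 (SE 0.21, limma adjusted p = 0.996, exact permutation p = 0.831), and it was -0.20 (SE 0.14) without the 3 libraries low in Fabp6.

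Reg1 was weakly expressed except in the same 3 libraries. It stood at 1499 in P. gingivalis replicate 1, at 245 in P. gingivalis replicate 5 and at 73.4 in PBS replicate 6. In the other 9 libraries it lay between 20.9 and 36.3, with 29.3 to 36.3 in PBS and 20.9 to 32.3 after P. gingivalis. The medians were 34.3 in PBS and 29.3 after P. gingivalis, although the means were 39.8 ± 16.6 and 308 ± 590 (SD, n = 6). The log2 difference was 0.95 (SE 0.89) and did not pass (limma adjusted p = 0.992, exact permutation p = 0.450). It was 0.09 (SE 0.53) without P. gingivalis replicate 1, and turned to -0.37 (SE 0.18) without the 3 libraries low in Fabp6.

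Pancreatic tissue is a known rich source of Reg1, so markers of its acinar cells were read in every library. Of 20 such genes, 5 had no reads in any library and 15, these 5 included, had at most 10 reads in any library. The elastase Cela3b was at 0, and the carboxypeptidase Cpa1, the trypsinogen Prss2 and the lipase Pnlip had 1, 1 and 3 reads over all 12 libraries. Clps, the colipase, had the most reads in the list, at 217 to 557 in PBS and 188 to 440 after P. gingivalis. Bhlha15, Pnliprp1, Sycn and Ctrl also passed 10 reads in a library, with at most 116, 36, 18 and 12. In P. gingivalis replicate 1, the library with the most Reg1, Prss2 had 1 read and Cela3b, Cpa1 and Pnlip had none. Clps, however, was highest in the same 3 libraries as Reg1. It stood at 557 in PBS replicate 6 and at 440 and 370 in P. gingivalis replicates 1 and 5, with the next library at 363. Bhlha15 and Pnliprp1, at 66.8 and 22.7 in P. gingivalis replicate 1, lay inside their PBS ranges. A part of pancreatic tissue in the Reg1 values was not tested.

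Reg3d, annotated in RefSeq with the synonym INGAP, stayed near the detection limit. It had 1 to 5 reads per library in PBS and 1 to 6 after P. gingivalis, 20 and 18 reads in all. It was the single member below the filter of a mean normalized count of 10 and was not tested by limma. Its log2 difference was 0.02 (exact two-sided permutation p = 0.965).

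**Figure D2:**
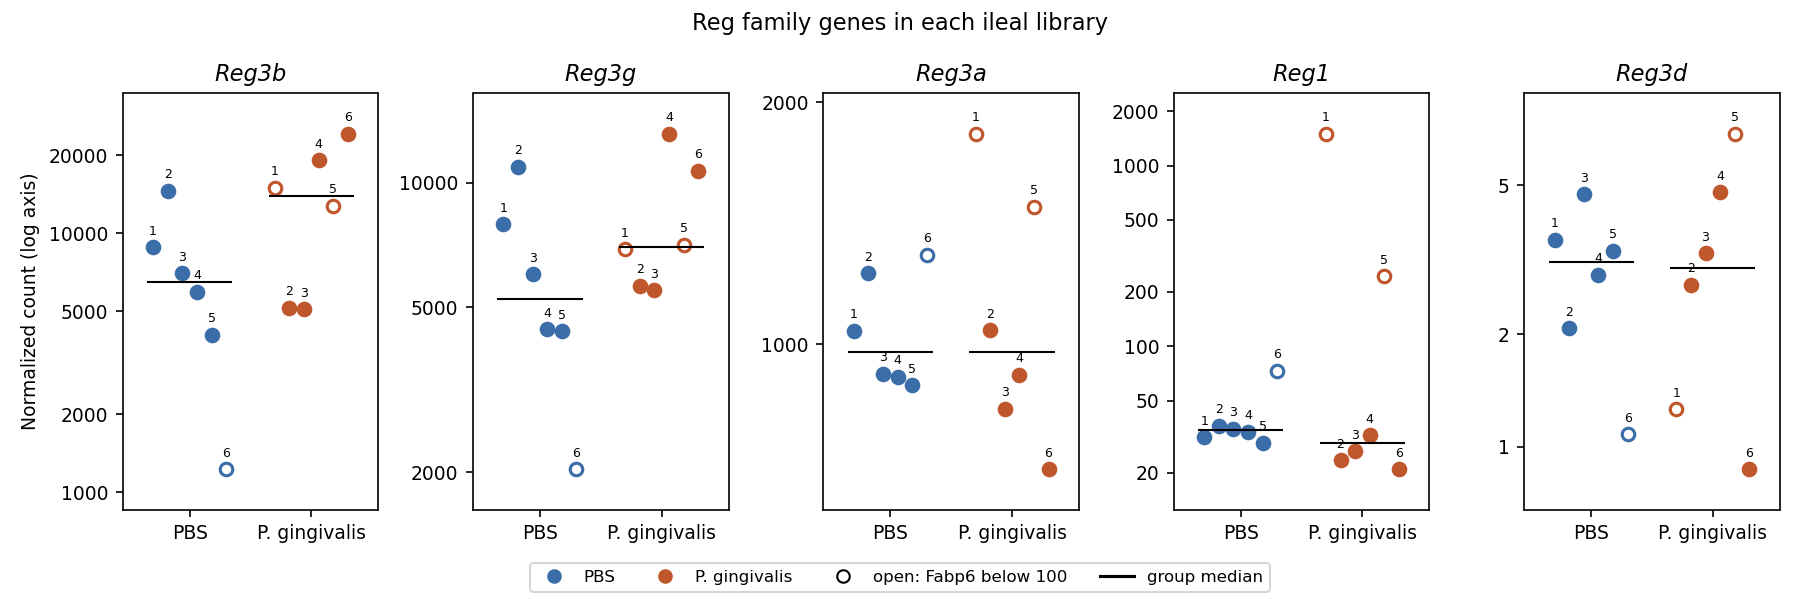
Normalized counts (vertical log axes, a separate scale per gene) of the 5 Reg genes in the 6 PBS and 6 P. gingivalis libraries. Each circle is 1 library with its replicate number, open circles mark the 3 libraries with Fabp6 below 100, and lines are group medians. The groups overlap for every gene, and the open circles are the 3 highest for Reg1 and Reg3a but not for Reg3b and Reg3g.

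In all, limma tested 4 members and called 0, and 0 of the 4 had an unadjusted p under 0.05. Over all 15025 genes tested, limma called 0.0%, and 3.73% had an unadjusted p under 0.05. On reads recovered from the table, edgeR called 0 of 4 members (0.0% of all genes it tested) and DESeq2 0 of 5 (0.181% of all genes it gave an adjusted p). Both had 1 member, Reg1, under an unadjusted p of 0.05 (3.64% of all genes in edgeR and 3.53% in DESeq2), with log2 differences of 2.94 in edgeR (adjusted p = 0.993) and 2.95 in DESeq2 (adjusted p = 0.546), against 0.95 on the log scale of limma. Reads of the single P. gingivalis replicate 1 made up 1189 of the 1504 Reg1 reads in its group. None of the 4 members had groups without overlap, which held for 0.166% of all genes tested. All 4 had positive differences, where 48.9% of all genes did.

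**Figure D3:**
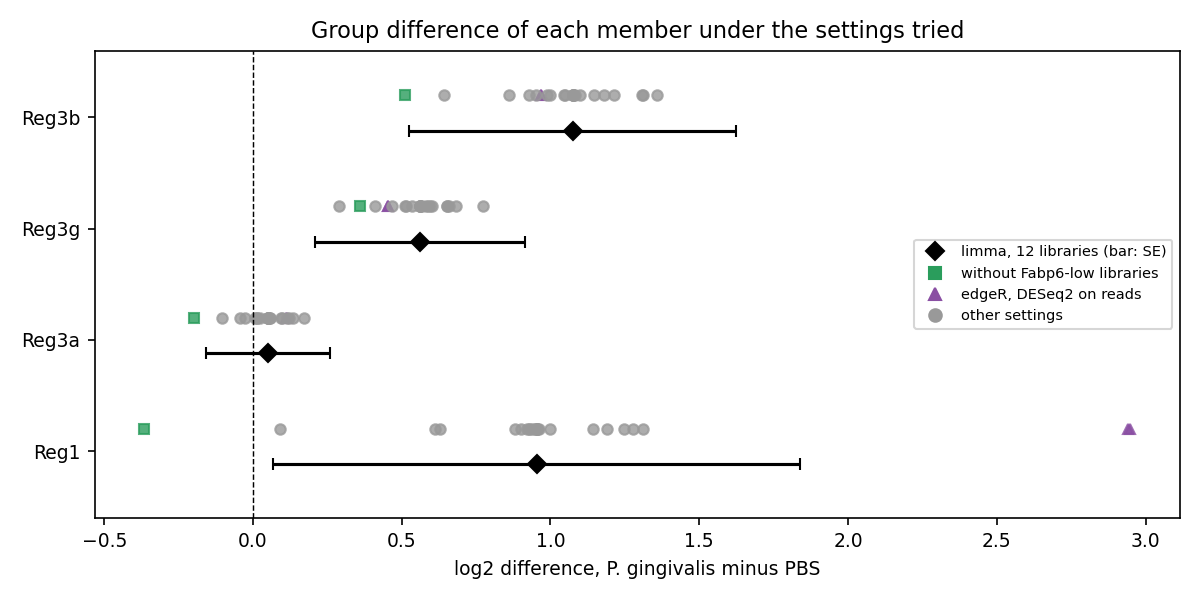
Log2 difference (P. gingivalis minus PBS, horizontal axis) of the 4 tested members. Black diamonds are the limma values over 12 libraries with SE bars, green squares leave out the 3 libraries low in Fabp6, purple triangles are edgeR and DESeq2 on recovered reads, and grey circles are all other settings. Reg3b and Reg3g stay above 0 throughout, whereas Reg3a and Reg1 have values on either side of 0.

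Reg3b and Reg3g rose and fell together from library to library. Over the 12 libraries Pearson's r of their log2 values was 0.94 (permutation p = 1e-05, the smallest these permutations can give; adjusted p = 6e-05 over 6 pairs of members) and Spearman's rho was 0.90 (permutation p = 0.00019, adjusted p = 0.00114). It was 0.98 within PBS and 0.86 within P. gingivalis, each over 6 libraries, and 0.87 when the 2 libraries farthest from the median of Reg3b were left out. In the 9 libraries with Fabp6 above 100, r was 0.94 (permutation p = 0.0006, adjusted p = 0.0036).

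For Reg1 and Reg3a no correlation over all 12 libraries is given, because Reg1 fell into separate sets of libraries. In the 9 libraries with Fabp6 above 100 the relation did not pass, since r was 0.61 (permutation p = 0.0851, adjusted p = 0.255), rho was 0.53 (permutation p = 0.148, adjusted p = 0.444) and r was 0.67 without the 2 libraries farthest from the median of Reg1. In the same 9 libraries, the pairs that joined Reg1 or Reg3a with Reg3b or Reg3g had r from -0.14 to 0.08, with adjusted p-values of 0.978 for each. Their rho ran from 0.10 to 0.33. Without the 2 libraries farthest from the median of Reg1 or Reg3a, r ran from 0.16 to 0.55. These values thus depended on single libraries and do not show that the pairs vary independently.

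**Figure D4:**
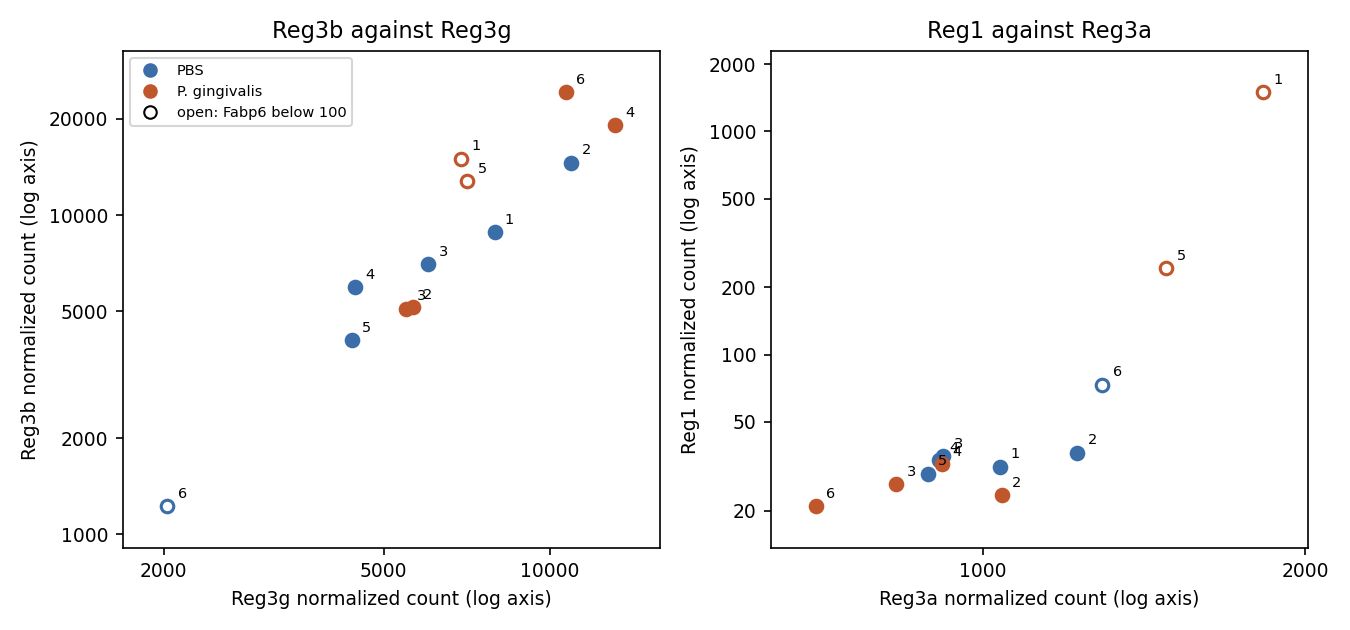
Normalized counts of Reg3b against Reg3g (left) and of Reg1 against Reg3a (right), on log axes. Each circle is 1 library with its replicate number, open where Fabp6 was below 100. Reg3b and Reg3g rise together, with scatter, from PBS replicate 6 to P. gingivalis replicates 4 and 6. At a like Reg3g, P. gingivalis replicate 6 has more Reg3b than PBS replicate 2. In the right panel the 3 open circles carry the high Reg1 values.

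The balance between the leading pair was compared by the ratio of Reg3b to Reg3g within a library, which does not depend on library scaling. It was 1.11, 1.34, 1.16, 1.34, 0.926 and 0.603 in PBS replicates 1 to 6, and 2.18, 0.911, 0.926, 1.46, 1.80 and 2.27 in P. gingivalis replicates 1 to 6. The 4 P. gingivalis libraries with high Reg3b all had ratios above the highest PBS ratio, and the other 2 lay inside the PBS range. Reg3b is the numerator, so libraries picked for high Reg3b lean to high ratios. PBS replicate 2, with Reg3b at 14597 against 12775 in P. gingivalis replicate 5, had a ratio of 1.34 against 1.80. The mean log2 ratio was 0.06 ± 0.44 in PBS and 0.58 ± 0.59 after P. gingivalis (SD, n = 6), a difference of 0.51 (SE 0.30) that did not pass (exact two-sided permutation p = 0.110, smallest possible 0.00216). Without the 3 libraries low in Fabp6 the difference was 0.15 (SE 0.33, exact permutation p = 0.675).

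The genes most like each member were taken from 11212 genes with a mean of at least 50, by Pearson's r over the 12 libraries after group means were subtracted, with no test. The closest gene to Reg3b was Reg3g, at 0.93, above every gene outside the family, of which the nearest were Ptbp2, a splicing regulator, at 0.90, the receptor kinase gene Tyro3 at 0.89 and Coq2, of coenzyme Q synthesis, at 0.86. For Reg3g, genes near it outside the family included 2310015A10Rik at 0.91 and the ubiquitin ligase gene Rad18 at 0.90. For Reg3a they were Fbp1, a fructose bisphosphatase, at 0.97, 2210407C18Rik at 0.95 and Gzma, the cytotoxic granule protease granzyme A, at 0.94. For Reg1 they were Siglec1, a macrophage lectin, at 0.96, Nmnat3, of NAD synthesis, at 0.96 and Slc16a6, a transporter gene, at 0.95. The named neighbours of Reg1 and Reg3a had their highest value in P. gingivalis replicate 1, the library with the highest Reg1 and Reg3a. As Reg1 fell into separate sets of libraries, its r here rests in large part on them. It was not computed within the libraries with Fabp6 above 100.

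Upstream of these genes, the interleukin 22 and Stat3 list held 32 cytokines, receptors, kinases and targets, of which 19 were tested. Of these, limma called 0 higher and 0 lower, 1 had an unadjusted p under 0.05, and the median difference was 0.013, beside -0.0039 over all genes tested. Il22 itself had 0 reads in all 12 libraries, which allows up to 3 reads in each, so it was not detectable at this depth. Il22ra1, the epithelial receptor chain, spanned 527 to 697 in PBS and 315 to 950 after P. gingivalis, a difference of 0.0042 (SE 0.20). Stat3, the transcription factor, differed by 0.09 (SE 0.09), and Socs3, its feedback inhibitor, by -0.17 (SE 0.12). The gene under 0.05 was Steap4, a metalloreductase also made by fat cells, which differed by -2.69 (SE 0.83, limma adjusted p = 0.855). Steap4 and the fat cell hormone gene Adipoq were both lower in most P. gingivalis libraries, with Adipoq at 0 in replicates 1 to 3 and Steap4 at 0, 4.52 and 23.0 there, and the part of fat tissue in Steap4 was not tested.

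Some epithelial genes of this list were high in the libraries with the most Reg3b, and others were not. Fut2, which adds fucose to epithelial glycans, stood at 46.6 and 41.8 in P. gingivalis replicates 4 and 6, the libraries with the most Reg3b, and between 3.43 and 13.3 in the other 10. Saa1, an acute phase protein singled out after its values were seen, stood at 13.2 and 27.0 in the same pair, from 11 and 31 reads, and at most 5.19 elsewhere. Retnlb, a goblet cell antimicrobial that is not in this list and was also singled out afterwards, had 9 reads in P. gingivalis replicate 6 and 0 in the other 11. The group difference of Fut2 did not pass (0.64, SE 0.57, limma adjusted p = 0.992), and Saa1 and Retnlb were below the filter. The P. gingivalis libraries with high Reg3b but low Fabp6, replicates 1 and 5, had Fut2 at 6.30 and 3.43 and Saa1 at 0, so high Reg3b came with high Fut2 in some libraries and without it in others. Il18, an epithelial cytokine gene, followed the libraries low in Fabp6, at 425 and 323 in replicates 1 and 5, 208 in PBS replicate 6, and 43.5 in P. gingivalis replicate 6. Il22ra1 and Socs3, at 315 and 190, were lowest of all 12 libraries in P. gingivalis replicate 6, and inside their PBS ranges in replicate 4. P. gingivalis replicate 2, with low Reg3b, had the highest Il22ra1, Socs3 and Stat3 of all 12, at 950, 311 and 1310.

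**Figure D5:**
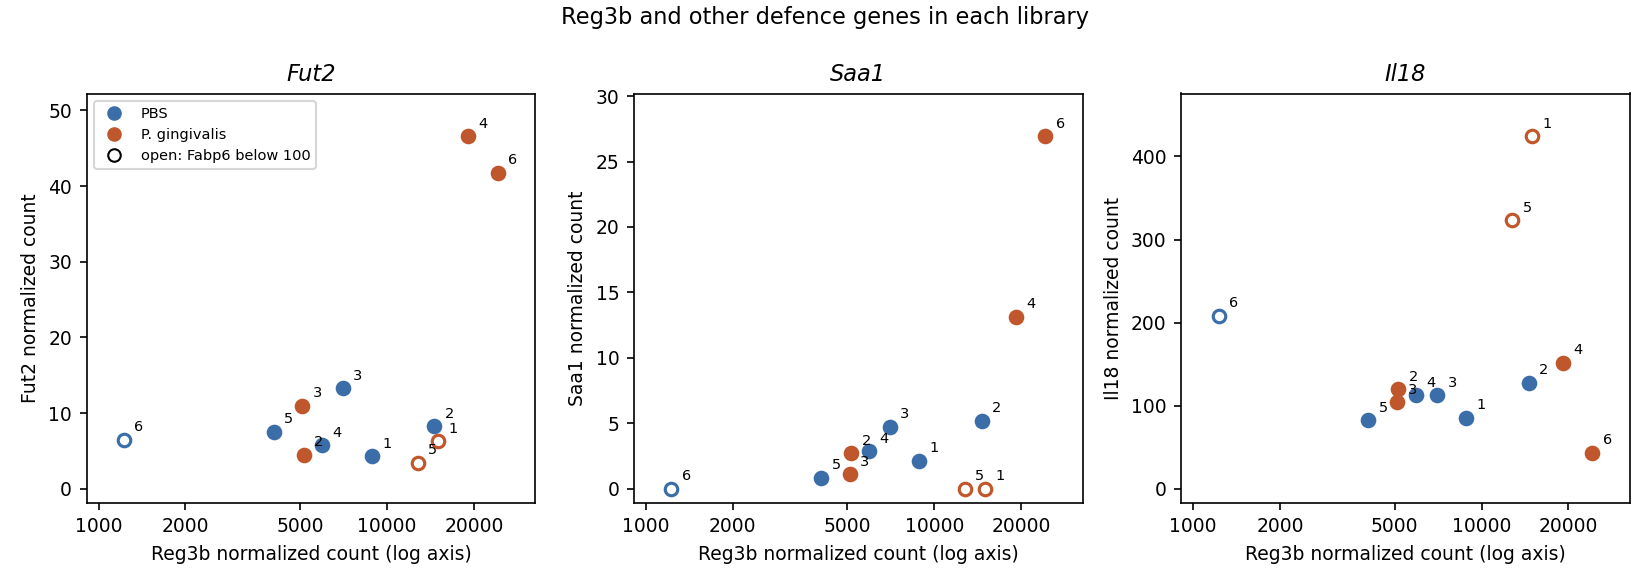
Normalized counts of Fut2, Saa1 and Il18 (vertical axes) against Reg3b (horizontal log axis), with 1 circle per library, its replicate number and open circles where Fabp6 was below 100. Fut2 and Saa1 are high in P. gingivalis replicates 4 and 6, and Il18 in the 3 open circles, which include both high and low Reg3b.

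Bacterial sensors and other defence genes were read beside the members. Of 24 sensing genes, all tested, limma called 0, 0 had an unadjusted p under 0.05 and the median difference was 0.01. Myd88, the adaptor needed for bacterial induction of Reg3g, differed by -0.02 (SE 0.11), and Nod2, a sensor of peptidoglycan fragments, by -0.11 (SE 0.23). Of 24 antimicrobial genes outside the family, 15 were tested, limma called 0, 1 (Slpi, a protease inhibitor) had an unadjusted p under 0.05 and the median difference was -0.031. Lyz1, the Paneth cell lysozyme, spanned 25863 to 63214 in PBS and 23022 to 55714 after P. gingivalis, and its 3 highest libraries were those low in Fabp6. Reg3a and Reg1 thus shared their 3 highest libraries with Lyz1, whereas PBS replicate 6, with the most Lyz1, had the least Reg3b and Reg3g. Extl3, a reported receptor for Reg proteins, differed by 0.02 (SE 0.11). The summed count of 13 pan-epithelial genes spanned 101533 to 118508 in PBS and 75112 to 145280 after P. gingivalis. P. gingivalis replicates 1 and 6, both high in Reg3b, had the lowest sums, and replicates 2 and 3, the low pair for Reg3b, the highest.

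Markers of other cells in the tissue were read beside the members, and limma called 0 genes in each list. Of all genes tested, 3.73% had an unadjusted p under 0.05 and 48.9% had a positive difference. All 11 fat cell genes had an unadjusted p under 0.05 and 0 were positive (median -4.38), with summed counts of 4840 to 23549 in PBS and 629 to 6173 after P. gingivalis. Of 10 smooth muscle genes, 4 were under 0.05 and 0 were positive (median -0.52), with sums of 13208 to 22951 and 8425 to 29944. All 10 B cell genes were positive (median 0.70) with 0 under 0.05, but their sums fell into separate sets, at 692 to 1010 in 5 libraries (1 and 6 of PBS, 3, 4 and 6 of P. gingivalis) and at 98.1 to 225 in the other 7. Of 9 tested genes of T cells and innate lymphoid cells, 2 were under 0.05 and 8 were positive (median 0.41). Their sums were 1098 to 1623 in PBS and 1241 to 2116 after P. gingivalis, highest in the 3 libraries low in Fabp6. Of 10 macrophage and dendritic cell genes, 1 was under 0.05 and 8 were positive (median 0.21), with sums of 2002 to 2688 and 1721 to 3205. Of 11 Paneth cell genes, 7 were positive, with a median of 0.01. The part of these cells in the Reg values was not tested.

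Reg4, the family member outside the cluster, on chromosome 3 from 98222156 to 98236748, was highest in the library with the most Reg3b. It spanned 713 to 1204 in PBS and 606 to 3467 after P. gingivalis. The value of 3467 belonged to P. gingivalis replicate 6, the library with Car1, and the other 5 P. gingivalis libraries lay between 606 and 1041. The log2 difference was 0.23 (SE 0.32, limma adjusted p = 0.992) and turned to -0.10 (SE 0.17) without that library.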

How the data were processed

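Per the submitters' processing notes, the tools were FastQC, HISAT2, Cufflinks and DESeq2, with the build GRCm38 (mm10) and no roles or versions. Per the labels' protocols, tissue was kept in RNAlater, RNA purified on RNeasy columns and libraries made with a TruSeq RNA kit. Counting method, strand setting and annotation release: not given in the sources used here. The deposited signal is a normalized count, scaled by the authors with a size factor for each library. Each library's values were whole multiples of 1 step, which gave whole reads for 100% of values within 0.001 reads. No library was a copy of another (smallest chi-square per degree of freedom 6.53).

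All genes whose mean normalized count reached 10 were compared with limma 3.58.1 (R 4.3.3, mean-variance trend, two-sided, Benjamini-Hochberg over all 15025 genes, threshold 0.05) on log2(normalized count + 1), which understates changes of low genes. The steps were tested on simulated data in which every gene had the same relative spread. This does not show what differences could be found in genes as variable as Reg3b or Reg1. Recovered reads were also fitted with edgeR 4.0.16 and DESeq2 1.42.0. Single values were tested by exact permutation over samples, correlations by 100000 permutations. Transcript lengths, coordinates and identities came from GENCODE M21. Promoters came from RefSeq (GRCm38.p6), where all 5 members were found by symbol, and RefSeq starts can differ from those of GENCODE. Protein sequences were not used here. Intervals for 0 reads cover counting error only.

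The members, gene lists and tests were chosen with earlier results of these data known. The text names the members, Reg2 and Reg4, up to 3 genes of smallest p per list, a fixed set of pathway and marker genes, and genes nearest by correlation, of which 1 is not reported here. Saa1, Retnlb and Car1 were singled out after their values were seen, although all belong to the lists. Alternatives were other pseudocounts and filters, TMM and upper-quartile rescaling, sample weights, a replicate block, the 2 count tools, a gut position covariate (log2 of Fabp6 and Slc10a2 against Fabp1 and Lct), leaving out the libraries with Fabp6 below 100, and leaving out each library in turn.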

Additional observations from a re-analysis of the deposited data

Results flagged for a closer look

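Of 44 sets of 6 values (1 gene in 1 group), 7 had a library far from the other 5, where the critical value used is one that chance passes in about 1 in 20 sets. The sets are not independent, since genes share libraries and 4 of the 7 are PBS replicate 6. For Reg1 these were PBS replicate 6, at 73.4 against 29.3 to 36.3 in the other PBS libraries, and P. gingivalis replicate 1, at 1499 against at most 245. For Reg4 it was P. gingivalis replicate 6, at 3467 against 606 to 1041. PBS replicate 6 also stood apart in 3 further genes, with Il18 at 208, Lyz1 at 63214 and Fabp1 at 16938. Nod2 stood at 11.4 in PBS replicate 2, below the other PBS libraries.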

How the results depend on the processing

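No member was called under any of 24 alternatives. Reg3b (0.51 to 1.36) and Reg3g (0.29 to 0.77) kept a positive difference in all 24. Leaving out 1 library gave 0.64 to 1.36 for Reg3b, 0.29 to 0.77 for Reg3g, 0.09 to 1.31 for Reg1, -0.11 to 0.17 for Reg3a and -0.10 to 0.41 for Reg4, for the Reg3b to Reg3g ratio 0.35 to 0.65 (exact permutation p from 0.0519 to 0.223) and for their correlation r from 0.88 to 0.96. Without the libraries with Fabp6 below 100 the sign turned for Reg1 (-0.37) and Reg3a (-0.20), and with the gut position covariate for Reg3a (-0.026). Reg3a also turned without P. gingivalis replicates 1 or 5, and Reg4 without P. gingivalis replicate 6. The cause was not tested. The replicate block gave 1.07 (SE 0.65) for Reg3b, 0.56 (SE 0.41) for Reg3g and 0.51 (SE 0.38, exact permutation p = 0.219) for their ratio, and changed no call. Same-numbered libraries did not deviate together (correlations from -0.54 to 0.08). These values show no pairing by number but cannot exclude one, since large differences between libraries, as in Fabp6, could hide it.

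Over all genes, limma called 0 in either direction, and 560 had an unadjusted p below 0.05. Higher calls numbered 1 with sample weights, 3 with DESeq2 and 1 without the libraries with Fabp6 below 100. Lower calls numbered 1 with a pseudocount of 5, 19 with sample weights, 30 with DESeq2 and 2 with the gut position covariate. Leaving out 1 library gave 0 to 1 higher and 0 to 52 lower calls, the most without P. gingivalis replicate 6. At this depth Reg3d had at most 6 reads in any library, Reg2 at most 2 and Il22 0, too few to read a difference from.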
